A study of Mus musculus with 6 samples.

Results

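Broad domains of H3K4me3 that were called in an Atg5 knockout library and were little covered in the matching wild-type library are described here. Regions of the knockout list on chromosomes 1 to 19 and X were joined over gaps of up to 1 kb, which gave 42090 domains. Of these, 1177 spanned at least 6000 bp, and 395 of the 1177 (33.6%, exact 95% interval 30.9 to 36.3%) had under 50% of their length beneath wild-type regions. These 395 domains are the subject of what follows. They were chosen by their knockout width and their wild-type cover, so both measures are given below as a description and support nothing. The other 782 broad knockout domains, covered at 50% or more, serve as the comparison set.

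H3K4me3, trimethylation of lysine on the tail of histone H3, is laid down by SET-domain methyltransferases at the starts of genes that are transcribed or poised. At most active genes the mark forms a short block over the CpG-rich start. At some genes it runs on for many kilobases into the gene, and such broad domains are known for genes that define the identity of a cell. In T cells these are typically genes of the antigen receptor, its signalling proteins and lymphoid transcription factors.

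The cells were CD8+ tumour-infiltrating lymphocytes of C57BL/6 background from tumours of the e0771 line, a mammary carcinoma line of the same strain. The control group was wild type, and the other group carried a Cre-mediated deletion of Atg5, which encodes a protein that conjugates to Atg12 and is needed to build autophagosomes. The promoter that drove Cre, the age of the mice and whether animals were pooled could not be learned from the sources used here. Chromatin was cut with micrococcal nuclease before immunoprecipitation, and each genotype had 1 H3K4me3 library, so no difference below has a replicate check and none was tested.

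The lists held 46547 knockout and 48525 wild-type regions on these chromosomes, which covered 73.1 and 71.2 Mb and had a median width of 1130 and 1103 bp. Sequencing depth cannot be read from the lists, and it bears on how long a called region is. The genes that define the labelled cell type were not equally covered in both lists. Cd8a and Cd3e, counted over the gene and 1 kb on either side, had 6376 and 5114 bp under knockout regions and 0 bp under wild-type regions. Cd8b1 had 15173 bp under knockout and 705 bp under wild-type regions. Of the 18 genes in the T cell receptor and co-receptor list, 18 had a knockout region and 13 a wild-type region, so the wild-type list lacked regions at genes that CD8+ T cells are defined by. Atg5 itself had 3957 and 2538 bp, which is no check of the deletion, since the deleted stretch is not named in the labels. In such bulk samples, fewer cells of a type and less of the mark per cell cannot be told apart.

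Promoter sequences are shown first, for kinds of start set apart by the wild-type regions near them or in their domain. CpG content differed between these kinds but overlapped. The printed starts were chosen after their values were seen. Each line gives the 250 bases before a gene start from RefSeq (GRCm38.p6), 5′ to 3′ on the strand of the gene, with CpG dinucleotides in capitals. They are the starts at the widest domains of each kind whose 250 bases lie outside annotated protein-coding genes. The first set had knockout cover at the start and no wild-type region within 1 kb of it. Gimap7 encodes a lymphocyte GTPase, Lck the kinase that first phosphorylates the T cell receptor complex, Cd8a a chain of the CD8 co-receptor, and Hdac7 a class IIa histone deacetylase.
Gimap7 (chr6:48718371-48718620, + strand): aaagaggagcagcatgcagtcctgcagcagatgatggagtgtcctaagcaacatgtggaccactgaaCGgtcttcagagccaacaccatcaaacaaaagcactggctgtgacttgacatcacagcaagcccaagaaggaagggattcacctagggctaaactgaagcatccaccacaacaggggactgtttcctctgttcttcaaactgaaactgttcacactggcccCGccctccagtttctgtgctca
Lck (chr4:129573642-129573891, - strand): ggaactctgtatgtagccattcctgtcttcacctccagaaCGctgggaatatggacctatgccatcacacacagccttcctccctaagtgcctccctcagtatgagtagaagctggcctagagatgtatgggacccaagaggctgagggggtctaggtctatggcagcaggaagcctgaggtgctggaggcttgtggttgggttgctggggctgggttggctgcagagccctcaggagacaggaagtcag
Cd8a (chr6:71373177-71373426, + strand): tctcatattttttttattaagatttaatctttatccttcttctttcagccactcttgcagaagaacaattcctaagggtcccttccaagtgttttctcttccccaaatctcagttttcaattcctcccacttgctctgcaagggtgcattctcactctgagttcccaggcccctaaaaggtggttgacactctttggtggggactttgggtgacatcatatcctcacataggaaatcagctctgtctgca
Hdac7 (chr15:97844503-97844752, - strand): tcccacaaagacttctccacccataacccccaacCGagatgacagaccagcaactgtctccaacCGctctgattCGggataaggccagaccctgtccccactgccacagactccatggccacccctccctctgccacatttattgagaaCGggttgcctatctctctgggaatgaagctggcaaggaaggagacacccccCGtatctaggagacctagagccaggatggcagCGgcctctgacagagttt

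These held 2, 1, 0 and 6 CpG dinucleotides, in that order. The second set lay in domains with a wild-type region of fold 20 or more, where the deposited fold sets the reads at a region's summit against the local background within 1 library. Atp1b3 encodes a sodium pump subunit, Ezr the membrane-to-actin linker ezrin, and Tgfbr2 the type II receptor of TGF-beta.
Atp1b3 (chr9:96364432-96364681, - strand): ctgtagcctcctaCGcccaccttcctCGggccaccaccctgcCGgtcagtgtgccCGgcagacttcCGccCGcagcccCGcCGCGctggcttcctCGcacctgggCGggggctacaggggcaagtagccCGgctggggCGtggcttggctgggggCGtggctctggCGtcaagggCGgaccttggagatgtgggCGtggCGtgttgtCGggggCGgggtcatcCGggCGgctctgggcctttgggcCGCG
Glipr2 (chr4:43957452-43957701, + strand): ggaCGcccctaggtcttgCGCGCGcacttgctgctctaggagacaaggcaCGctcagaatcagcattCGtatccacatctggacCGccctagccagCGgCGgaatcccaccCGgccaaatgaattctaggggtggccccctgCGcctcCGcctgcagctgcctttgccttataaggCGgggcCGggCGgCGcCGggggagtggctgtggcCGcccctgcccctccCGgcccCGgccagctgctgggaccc
Ezr (chr17:6782781-6783030, - strand): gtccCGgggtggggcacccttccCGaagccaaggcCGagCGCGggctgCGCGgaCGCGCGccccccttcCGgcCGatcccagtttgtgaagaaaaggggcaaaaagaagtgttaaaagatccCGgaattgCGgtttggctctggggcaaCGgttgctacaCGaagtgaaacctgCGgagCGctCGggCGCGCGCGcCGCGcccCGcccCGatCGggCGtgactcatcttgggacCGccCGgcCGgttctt
Tgfbr2 (chr9:116175364-116175613, - strand): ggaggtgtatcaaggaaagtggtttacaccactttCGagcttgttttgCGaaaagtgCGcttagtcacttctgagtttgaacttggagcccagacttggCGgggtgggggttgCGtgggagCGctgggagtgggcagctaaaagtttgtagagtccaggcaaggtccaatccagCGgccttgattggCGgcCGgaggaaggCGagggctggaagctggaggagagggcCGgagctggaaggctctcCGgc

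These held 24, 20, 32 and 12 CpG dinucleotides. All 8 starts lay in knockout domains, with 1753 to 2001 of the 2001 bp within 1 kb covered in that list. In the second set the wild-type list covered 1915 to 2001 of those 2001 bp.

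The 395 domains ran from 6011 to 56761 bp, with a median of 8394 bp and quartiles of 6912 and 11390.5 bp. Together they spanned 4.08 Mb, of which wild-type regions covered 23.4%. A single knockout region made up 105 of them (26.6%), and the others joined up to 6 regions. Wild-type regions were absent from 62 domains, which is 5.27% of all broad knockout domains. Where wild-type regions were present (333 domains), the longest joined wild-type domain had a median of 2324 bp, and the median ratio of knockout width to that length was 3.93. By width class, little-covered domains made up 177 of 666 domains of 6000 to 8000 bp (26.6%), 133 of 347 of 8000 to 12000 bp (38.3%), 62 of 135 of 12000 to 20000 bp (45.9%) and 23 of 29 above that (79.3%). At the limits of the rule, Leprotl1 (49.9% covered), Cotl1 (49.8%) and Glrx (49.6%) lay just inside and Psd4 (50.02%), Trappc9 (50.06%) and Ttc7 (50.1%) just outside. By width, the domains at Jmjd1c (6011 bp), Abcb9 (6011 bp) and Epsti1 (6018 bp) lay just inside, and those at Dph5 (5993 bp), Dnajb12 (5986 bp) and Zscan2 (5978 bp) just outside.

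**Figure D1:**
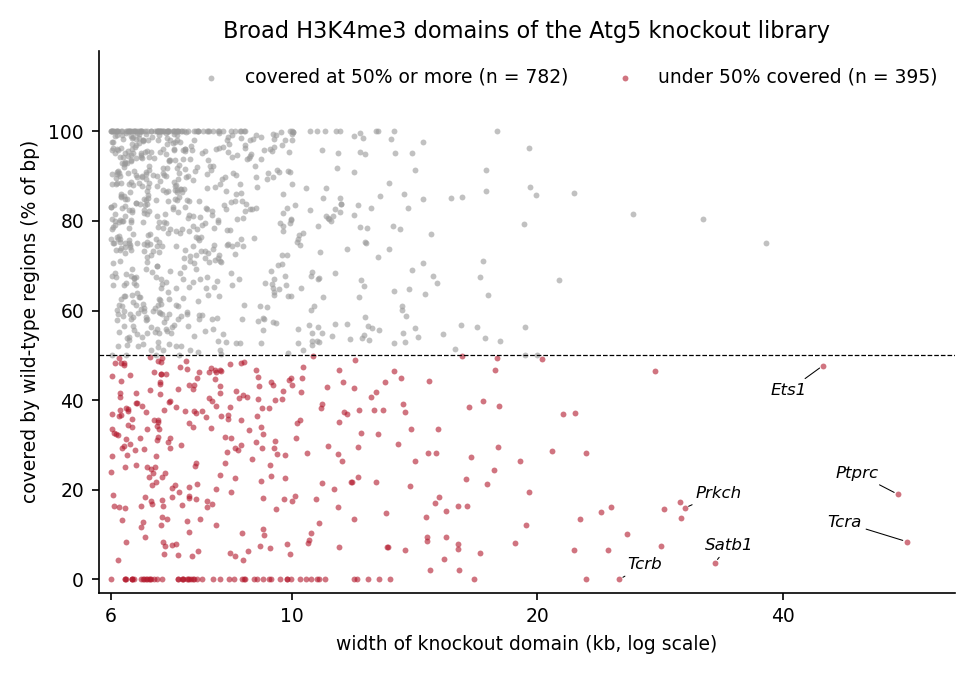
Width of every broad knockout domain (kb, log scale) against the percent of its bp under wild-type regions, 1 point a domain, with the 395 domains under 50% in red and the 782 others in grey. Of the 29 domains of 20 kb or more, 23 lie below the dashed 50% line, with Tcra at 56761 bp and 8.43% and Ptprc at 55361 bp and 18.98%.

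With the lists exchanged, 736 wild-type domains reached 6000 bp and 21 of these (2.85%, exact 95% interval 1.77 to 4.33%) were covered by less than 50% in the knockout. This count depended on the joining of regions and on the limits. It was 6 with gaps of up to 500 bp and 205 with gaps of up to 2 kb, where the little-covered knockout domains numbered 724, and it was 3 for domains of at least 8000 bp and 1 under 25% cover. The widest of the 21 spanned 8524 bp at Slc39a14, which encodes a zinc transporter, and each of them met at least 1 knockout region, with knockout cover from 23.8 to 49.98%. They overlapped 15 protein-coding genes (0.0693% of all 21631), among them Cd300lb, an activating receptor of myeloid cells, and Prkch at a place other than its knockout domain.

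The widest domain of all lay over an antigen receptor locus. This domain of 56761 bp on chromosome 14 (54172627 to 54229387, GRCm38) spanned the joining segments and constant gene of the T cell receptor alpha locus (Tcra). Wild-type regions covered 4785 bp of it and lay towards the end of higher coordinate. At the T cell receptor beta locus (Tcrb, chromosome 6, 41534047 to 41559263) a knockout domain of 25217 bp over the joining segments and both constant genes met no wild-type region. The domain over Cd3g and Cd3d, which encode 2 chains of the CD3 complex, spanned 11869 bp, 21.7% of it under wild-type regions. Cd247, the CD3 zeta chain, held 3 domains of 9260, 7476 and 6450 bp, with 9.81, 18.1 and 25.5% covered. Cd3e was at no such domain. Over the genes of the CD8 co-receptor, 4 domains followed each other within 58730 bp of chromosome 6. They spanned 15359 and 9871 bp at Cd8b1, 13767 bp between the genes and 10420 bp at Cd8a, and the wild type covered 3.27% of their summed 49417 bp.

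**Figure D2:**
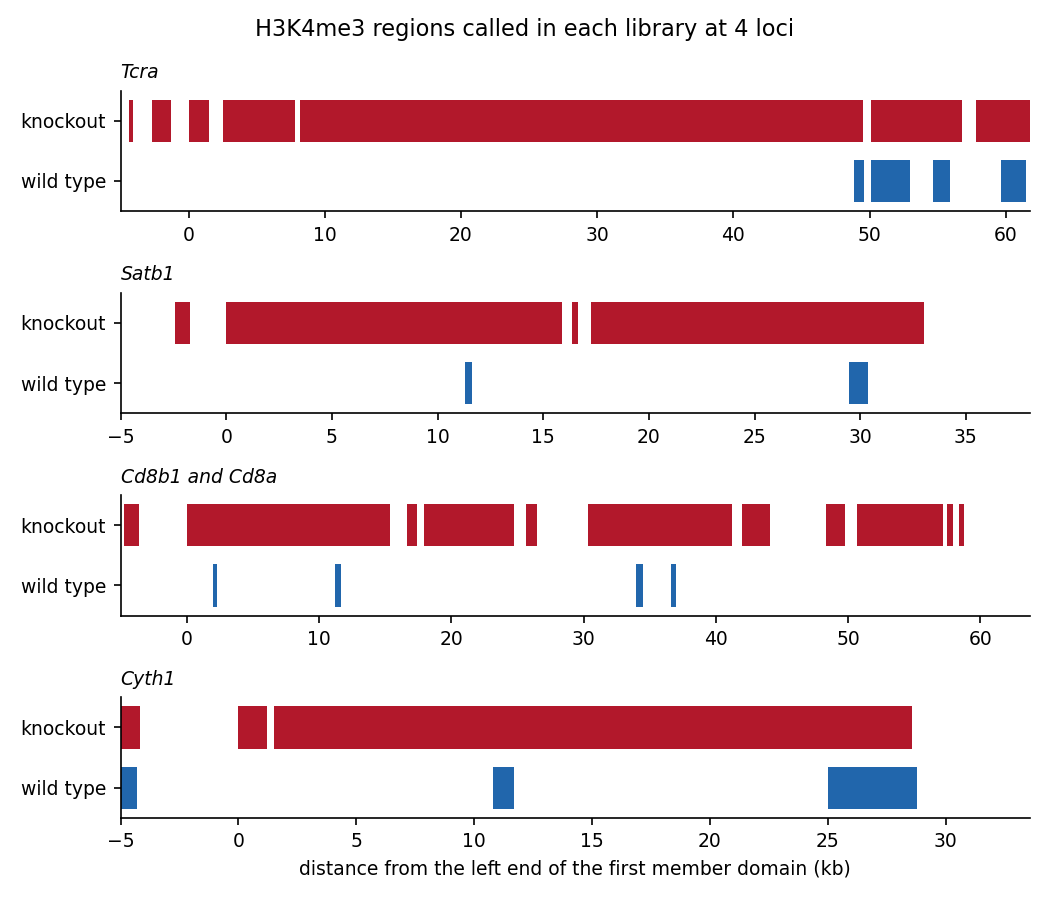
Regions called in the knockout (red) and wild-type (blue) lists at 4 loci, plotted in kb from the left end of the first domain, 1 bar a region, cut at 5 kb beyond the domains. Knockout regions run over most of each span, while at Tcra, Satb1 and Cd8b1 with Cd8a the wild-type regions cover 8.43, 3.73 and 3.27% of the domains, and at Cyth1 15.7%.

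Of the 18 genes of the T cell receptor and co-receptor list, 11 overlapped one of the 395 domains, against 1.61% of all 21631 protein-coding genes. None of the 18 overlapped a broad domain covered at 50% or more, which 3.96% of all genes did. Over the gene and 1 kb around it, knockout regions covered more bp than wild-type regions at 17 of the 18 and fewer at 1. The median difference was 6623.5 bp, against 0 bp over all genes. Of all 21631 protein-coding genes, 7645 had more bp under knockout regions and 8060 fewer. Cd226, an activating receptor of the nectin-binding family, had 36370 bp under knockout and 638 bp under wild-type regions, with 2 domains of 16046 and 14777 bp. Cd28, the main co-stimulatory receptor, had 14463 and 1400 bp, and Cd27, a co-stimulatory receptor of the TNF receptor family, had 6517 and 1161 bp in a domain of 13060 bp that also overlaps Tapbpl, where the highest wild-type fold was 43.3. Cd5, a negative regulator of receptor signalling, had 6244 and 0 bp, although wild-type regions covered 16.6% of its domain of 7341 bp. Cd2, an adhesion receptor, had 12001 and 568 bp. Over the gene and 1 kb around it, the genes covered in the knockout list only were Cd3e, Cd5, Cd8a, Thy1 and Trat1. This list and all others of the 16 used here were drawn up with earlier results of these data known, so their counts are no independent evidence.

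Among 35 genes of T cell receptor signalling, 20 overlapped one of the 395 domains and 6 overlapped a broad domain covered at 50% or more, Plcg1 being in both sets. Knockout regions covered more bp than wild-type regions at all 35 genes, and at least 2000 bp more at 34, whereas 6.5% of all protein-coding genes differed by as much in that direction. Ptprc, the phosphatase CD45 that keeps Src kinases active, had a domain of 55361 bp made of 6 knockout regions, against 10 short wild-type regions with 10510 bp. Grap2, the adaptor GADS, had domains of 24611 and 22200 bp with 16.1 and 6.5% covered. Prkch, protein kinase C eta, had a domain of 30338 bp with 15.9% covered, and Prkcq, protein kinase C theta, had domains of 14665 and 11911 bp with 9.53 and 13.5% covered. Rhoh, a GTPase of blood cells that recruits Zap70, had a domain of 17903 bp with 29.5% covered and another of 12031 bp that met no wild-type region. At Zap70, the kinase that binds the phosphorylated zeta chain, the knockout domain of 7660 bp met no wild-type region. The same was true at Themis (10553 bp), Tespa1 (6601 bp), Skap1 (9369 bp) and Sh2d1a, which encodes the adaptor SAP (6535 bp). Counted together, 31 of the 53 genes of these first 2 lists were at the 395 domains (58.5%), beside 1.61% of all protein-coding genes. With only gene starts counted, 28 of the 53 were inside one, against 1.12% of all genes.

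Of 42 genes for lymphoid transcription factors, 15 overlapped a little-covered domain and 16 a broad domain covered at 50% or more, against 1.61 and 3.96% of all protein-coding genes. Foxp1, Stat5b and Elf1 were in both sets. In this list, knockout regions covered more bp than wild-type regions at 39, by a median of 4641 bp over the 42. Over all 21631 protein-coding genes this was so at 7645, with fewer bp at 8060. Satb1, a chromatin organiser of thymocytes, had a knockout domain of 33021 bp with 1233 bp under wild-type regions, whose highest fold was 4.42. Bcl11b, needed for commitment to the T lineage, carried 4 domains of 17029, 10883, 10797 and 6372 bp, and the wild type covered 12.2% of their sum. Tcf7 (TCF-1), which maintains naive T cells and self-renewing exhausted T cells, had a domain of 23962 bp with 14.97% covered. Its relative Lef1 had domains of 16000 and 10478 bp with 7.84 and 8.05% covered. Ikzf1 (Ikaros) had a domain of 16492 bp with 38.4% covered and one of 13201 bp that met no wild-type region. The Ets1 domain of 44811 bp had the highest knockout fold of the 395 (62.2), its wild-type regions reached a fold of 65.9, and 47.7% of it was covered. Broad domains covered at 50% or more reached higher folds, up to 104.3 in the knockout list and 68.6 in the wild-type list. A second Ets1 domain of 10751 bp met no wild-type region. Runx3, which represses Cd4 in CD8 T cells, had domains of 6242 and 6061 bp with 16.0 and 32.7% covered. Tbx21 (T-bet), a driver of effector differentiation, had 6943 bp with 14.03% covered, while Gata3 lay in a broad domain covered at 50% or more, with 16622 bp under knockout and 15030 bp under wild-type regions.

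Genes of homing and residency were at little-covered domains for 11 of 20, against 1.61% of all protein-coding genes. Ccr7, the chemokine receptor that guides naive cells to lymph nodes, had 14981 bp with 16.9% covered. Cxcr6, a chemokine receptor of tissue-resident and effector cells, had 14650 bp with 8.59% covered, in a domain that also reaches Fyco1. Gpr183, a receptor for oxysterols, had 15998 bp with 16.5% covered. Itgae, the CD103 integrin chain of resident T cells, had 6844 bp that met no wild-type region, and a second, covered broad domain elsewhere in the gene. Of 18 cytokine receptor genes, 5 were at such domains, beside the same 1.61%. Tgfbr2 had 16367 bp with 22.3% covered, Il6st, which encodes the shared chain gp130, had 12177 bp with 32.7% covered, and Il7r, the receptor of the survival cytokine IL-7, had 8295 bp with 26.1% covered.

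Of 21 effector genes 1 (4.76%) was at such a domain, beside 1.61% of all protein-coding genes. It was Nkg7, whose product sits in the cytotoxic granules of lymphocytes, in a domain of 8532 bp with 29.3% covered that also overlaps Etfb and Cldnd2. Over the gene and 1 kb around it, Nkg7 itself had 2684 bp under knockout and 0 bp under wild-type regions. Over the whole effector list, knockout regions covered more bp at 17 of 21 genes and fewer at 2, by a median of 1423 bp. The same counts over all 21631 protein-coding genes were 7645 more and 8060 fewer, with a median of 0 bp. Ifng and Gzmb, which encode interferon gamma and granzyme B, had 2047 and 2173 bp under knockout and 0 bp under wild-type regions, below the 6000 bp that defines a broad domain. Of 12 inhibitory receptor genes 1 (8.33%) was at a domain, Slamf6, a receptor of stem-like T cells, with 7225 bp and 7.97% covered. Over the inhibitory receptor list, knockout regions covered more bp at 8 genes and fewer at 3 (Cd244a, Cd200r1 and Tigit), and Klrg1 had 0 bp in both lists. The median difference was 1211 bp.

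Some little-covered domains lay near each other, while most stood alone. Within gaps of 50 kb, the 395 domains fell into 327 groups, of which 56 held more than 1 domain (124 domains in all). The same grouping was not made for the comparison domains. The Ms4a cluster of membrane proteins on chromosome 19 held 4 domains of 28383, 25787, 17685 and 12791 bp over Ms4a4b, Ms4a6c, Ms4a6b and Ms4a4c, with 10.7% of their sum covered in the wild type. The Gimap cluster of lymphocyte GTPases on chromosome 6 held 4 domains within 74756 bp with 15.6% covered, and 6 of its 8 listed genes were in them. The domain of 16723 bp at Gimap7 met no wild-type region, whereas that of 17375 bp over Gimap9 and Gimap4 had 21.3% covered and held a wild-type region with a fold of 29.4. Of the 348 protein-coding genes at little-covered domains, 40 met at least 2 of them and 4 met at least 3. These 4 were Bcl11b with 4, and Ripor2, Jak1 and Cd247 with 3 each. Ripor2, an inhibitor of RhoA, had 5.63% of its summed 34887 bp covered, and the cytokine receptor kinase gene Jak1 20.8% of 28626 bp.

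The wild-type regions that met the domains were of unequal strength. A region counted at an overlap of at least 1 bp, so its summit can lie outside the domain. By the authors' fold within the wild-type list, 169 domains held regions of fold under 10 only, 51 reached a fold of 10 to 20, and 113 (28.6%) reached 20 or more. Among the 782 comparison domains the last class made up 84.4%. Domains with a wild-type fold of 20 or more had a median of 39.5% covered. They overlapped a gene of the 2 T cell receptor lists in 4 of 113 cases (3.54%), beside 39 of all 395 domains. Those with a fold of 10 to 20 did so in 7 of 51 cases (13.7%), those with a fold under 10 in 18 of 169 (10.7%) and those without a wild-type region in 10 of 62 (16.1%). These counts are small, the classes rest on the wild-type list that the choice of domains used, and differences between them were not tested. The strong class included Ezr (17153 bp, 39.9% covered, wild-type fold 42.9), Cyth1, an exchange factor for ARF GTPases (28568 bp, 15.7%, fold 30.7), Mbnl1, a splicing regulator (20251 bp, 49.1%, fold 36.1), Peli1, an E3 ubiquitin ligase (29996 bp, 13.8%, fold 27.3), and Xrn2, a nuclear exonuclease (6914 bp, 45.8%, fold 42.9). In these cases a wild-type region was present at strength and the knockout domain ran beyond it. Within the knockout list, the highest fold in a little-covered domain had a median of 22.9 (quartiles 15.1 and 30.3), against 35.1 (27.4 and 41.4) for the comparison set.

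Around gene starts of known strand, the little-covered domains reached mostly downstream, as did most comparison domains. Starts with a known strand were found for 17274 of the 21631 protein-coding genes and for 275 of the 348 genes at the domains, and 186 domains held at least 1. Where a domain held several, the start nearest its highest knockout summit was used. The domain reached farther downstream than upstream of the start in 156 of 186 cases (83.9%), with medians of 6873 bp downstream and 1608 bp upstream. In the comparison set this was so for 411 of 534 (77.0%), with medians of 5145.5 and 2180.5 bp. These lengths are of the whole knockout domain, not of the part beyond wild-type regions. In the first 500 bp after the start the knockout list covered 98.5% and the wild-type list 79.8% of the bases. From 3000 to 3500 bp downstream these figures were 85.4 and 11.2%, and from 5000 to 5500 bp they were 68.1 and 7.55%. At the comparison starts the lists covered 76.6 and 59.2% from 3000 to 3500 bp. The choice of domains used knockout width and wild-type cover, so the gap between the lists here is a description only. Wild-type regions touched the 1 kb on either side of 165 of the 186 starts, so that at most of these genes the wild-type library did have a region at the start. Starts of any kind (for genes of unknown strand, either boundary) were inside 230 of the 395 domains (58.2%, exact 95% interval 53.2 to 63.1%) and 652 of the 782 (83.4%, 80.6 to 85.9%). Since wild-type regions lay at most starts, the limit on wild-type cover bears on these shares, and no difference is read from them. With the limit at 25% cover the share was 41.4%. Of the domains without a wild-type region, 14 of 62 held a start.

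**Figure D3:**
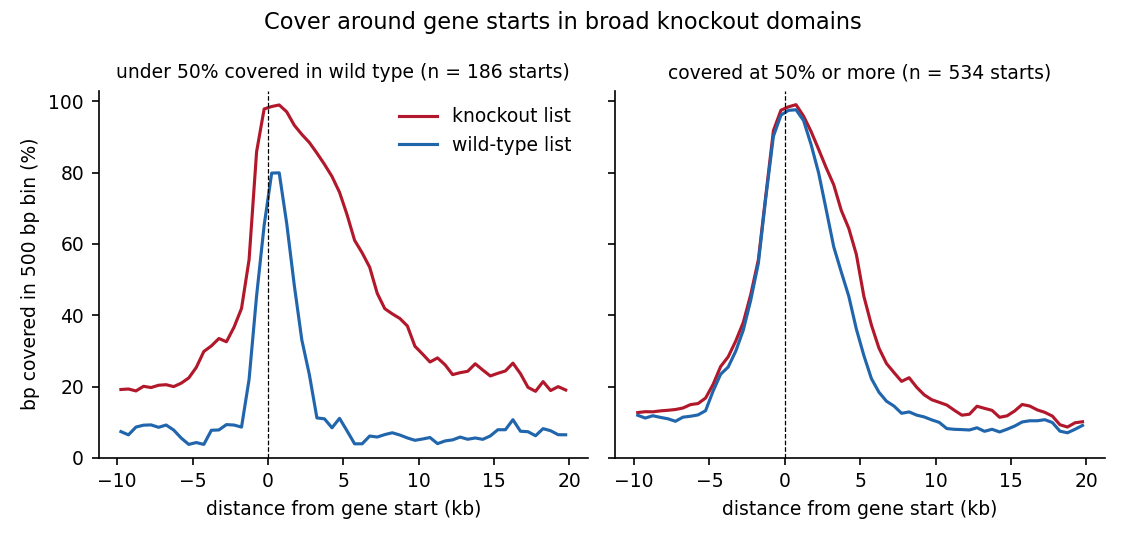
Percent of bases covered in 500 bp bins from 10 kb upstream to 20 kb downstream of gene starts, for the knockout (red) and wild-type (blue) lists, in the 186 little-covered domains (left) and the 534 comparison domains (right) that hold a start of known strand. On the left the wild-type curve is down to 11.2% in the bin at 3000 to 3500 bp where the knockout curve is at 85.4%. On the right the values there are 59.2 and 76.6%.

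The choice of domains did not use promoter sequence, but the kinds of domain shown above rest on the wild-type list, which that choice did use. CpG content differed between these kinds, with overlap. Promoters were taken as 250 bases before to 50 after the start. The ratio of observed to expected CpG had a median of 0.57 over 21045 promoters of protein-coding genes, 0.48 in the 186 little-covered domains and 0.79 in the 534 comparison domains. Within the little-covered set the median was 0.80 for the 76 starts in domains with a wild-type fold of 20 or more, 0.30 for the 102 in domains with a lower fold and 0.23 for the 8 in domains without a wild-type region. A ratio of at least 0.6 was reached by 72.4, 21.6 and 12.5% of these promoters, against 48.1% of all promoters. At the 21 starts without a wild-type region within 1 kb the median was 0.27 and 2 reached 0.6. The sequences of Lck and Cd8a printed above are of this kind, and those of Ezr and Atp1b3 are of the CpG-rich kind.

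**Figure D4:**
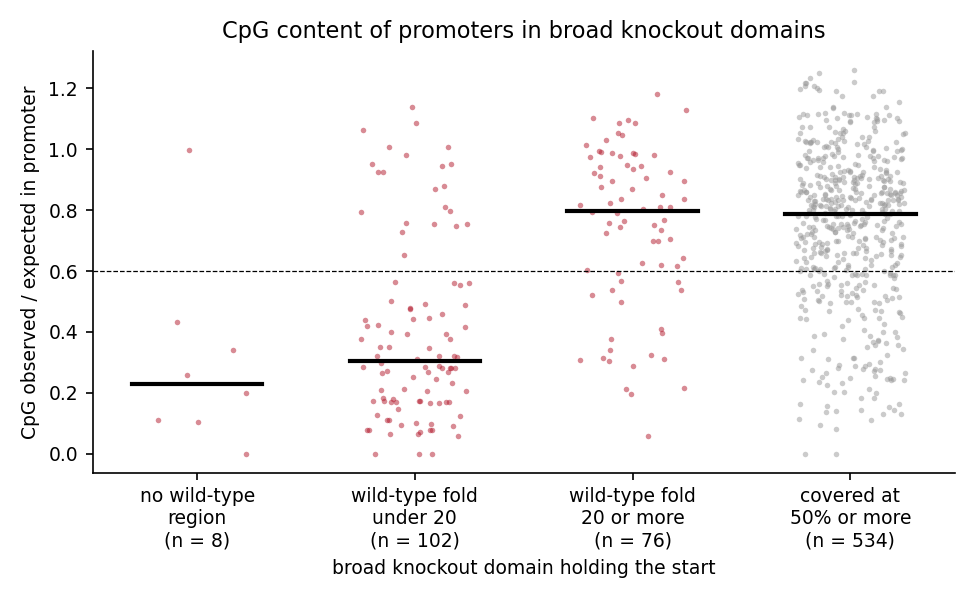
Observed over expected CpG of the 300-base promoter, 1 point a start, for little-covered domains by their highest wild-type fold (red) and comparison domains (grey); black bars are medians and the dashed line marks 0.6. The medians are 0.23, 0.30, 0.80 and 0.79 from left to right.

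A set of 5 short motifs was counted on both strands of the same promoters, as letters only. The ETS motif ACAGGAAG occurred in 22 of the 186 promoters (11.8%), in 16 of the 534 of the comparison set (3.0%) and in 3.25% of all promoters. It was in 17 of the 102 promoters of domains with a wild-type fold under 20, in 5 of the 76 with a higher fold, and in 0 of the 8 of domains without a wild-type region. The printed Lck sequence holds it near the start. The RUNX motif TGTGGT occurred in 20.4% of the 186, 10.7% of the comparison set and 14.7% of all promoters, and the TCF/LEF motif CTTTGA in 16.7, 9.55 and 14.4%. The AP-1 motif TGANTCA occurred in 5.91, 4.87 and 7.04%, and the palindromic NRF1 motif in 0.54, 1.12 and 1.34%. No motif was part of another, and promoters of low CpG content differ in base composition from the rest, which was not corrected for.

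Of the 395 domains, 350 (88.6%) overlapped a protein-coding gene, 120 of them without a gene start, and 45 overlapped none. The 45 included the Tcra and Tcrb loci and a domain of 8522 bp over the joining segments and Ighm of the immunoglobulin heavy chain locus (chromosome 12, 113422315 to 113430836), of which the wild type covered 5.28%. On chromosome 15 (60165491 to 60188440) a single knockout region of 22950 bp with a fold of 26.0 met no wild-type region, and the only annotated gene there was the predicted Gm41331. A second domain of 9216 bp lay within 50 kb of it, also without a wild-type region. In all, 26 of the 45 overlapped another kind of gene, such as a long noncoding RNA, 19 overlapped no annotated gene and 16 met no wild-type region. The widest of the 19 was that of 13767 bp between Cd8b1 and Cd8a.

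Markers of other cells that a sort for CD8+ cells could hold were next examined, beside the 1.61% of all protein-coding genes at these domains. At that share, counts of 0 in lists of this length are near the background and are read as no result about these cells. None of the 22 myeloid, 14 epithelial and tumour, 12 B cell or 12 CD4 and regulatory T cell genes overlapped one. Of 12 NK cell genes 1 did, Klrk1, the NKG2D receptor that CD8 T cells also carry (6622 bp, no wild-type region), and of 15 fibroblast and endothelial genes 1, the endothelial adhesion molecule Pecam1 (7315 bp, 29.9% covered). Neither the 18 housekeeping nor the 31 autophagy genes met one, although 7 housekeeping genes were in broad domains covered at 50% or more. Their counts of 0 are near the background as well. Covered length summed over each list, for the gene and 1 kb around it, was 188566 bp under knockout and 21207 bp under wild-type regions for the T cell receptor and co-receptor list. The signalling list had 610582 and 180146 bp and the Gimap list 50337 and 11125 bp. The sum was 49334 and 59116 bp for the myeloid list, with fewer bp in the knockout at 13 of 22 genes and more at 5. NK cell genes had 27029 and 8472 bp (2 of 12 with fewer bp in the knockout, 6 with more), B cell genes 18982 and 15150 bp (3 of 12 fewer, 5 more) and CD4 and regulatory T cell genes 12800 and 12427 bp (3 of 12 fewer, 4 more). Fibroblast and endothelial genes had 45468 and 55364 bp (11 of 15 fewer, 2 more) and epithelial and tumour genes 24694 and 24058 bp (4 of 14 fewer, 6 more). Of all 21631 protein-coding genes, 8060 had fewer bp in the knockout and 7645 more. No count was tested, and short lists such as the B cell list lie near these shares. Many markers of other cells had regions in both libraries. By the counts over all genes, most protein-coding genes had a region in at least 1 list. A region at a marker is therefore read as no result about these cells. Regions were present at 19 of 22 myeloid genes in each list, such as Spi1 (6723 bp under knockout, 8440 bp under wild-type regions), at 10 (knockout) and 9 (wild type) of 14 epithelial and tumour genes, such as Epcam (2223 and 2190 bp), and at 8 and 7 of 12 B cell genes, such as Pax5 (4569 and 4751 bp). They were present at 12 of 15 fibroblast and endothelial genes in each list, at 8 and 4 of 12 NK cell genes and at 7 and 5 of 12 CD4 and regulatory T cell genes. At 0 in both lists were C1qa, C1qb and C1qc of macrophages, Krt5, Krt14, Krt19 and Cldn3 of epithelia, Ms4a1, Cd22 and Fcer2a among the B cell genes, Foxp3 of regulatory T cells and Ncr1 of NK cells. Whether the share of T cells in each library had a part in the little-covered domains was not tested.

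**Figure D5:**
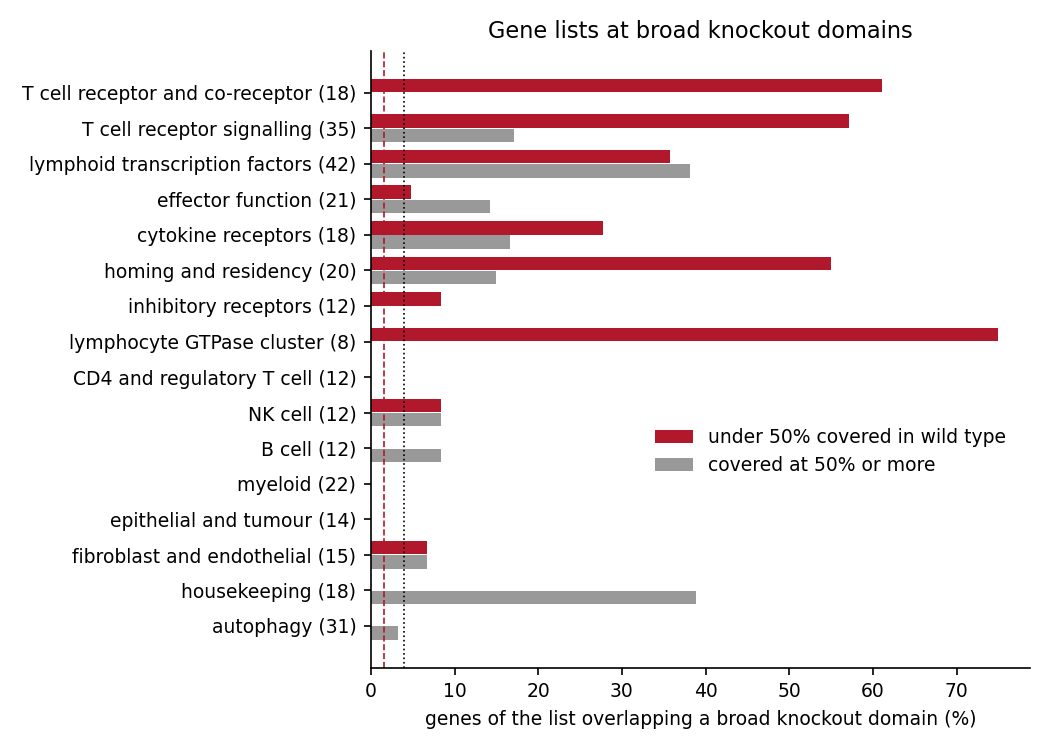
Percent of the genes of each list (number in brackets) that overlap a little-covered domain (red bars) or a broad knockout domain covered at 50% or more (grey bars); lines mark the same percent over all protein-coding genes, 1.61% (dashed) and 3.96% (dotted). The T cell receptor, signalling, homing and Gimap lists reach 55 to 75% in red, while the myeloid, epithelial, B cell, CD4, housekeeping and autophagy lists are at 0%. In lists of this length, 0% is near the 1.61% of all genes.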

How the data were processed

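The data were H3K4me3 peak lists, 1 library per genotype. Libraries of H3K27me3 and of input were not analysed here. The authors' peak caller was MACS2 and the build GRCm38 (mm10), per the submitters' processing notes. The aligner, the caller's version and settings and the use of the input were not given in the sources used here. The deposited fold is a ratio of summit reads to local background, the deposited −log10 p and q values refer to the same summit (lowest −log10 q 2.02 for knockout and 2.00 for wild-type regions), and the deposited score was not used. All are the authors' values, not scaled between libraries, and served only to describe or filter regions within 1 list. The value column for the summit gives its position in the region. Regions on chromosome Y, the mitochondrial genome and scaffolds were left out (82 knockout and 86 wild-type regions).

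Genes came from a RefSeq table of GRCm38.p6 (21631 protein-coding genes), and strands, starts and sequences from RefSeq promoters of the same build. All 308 listed genes were found in the table by symbol. A gene was counted at a domain at an overlap of at least 1 bp. Genes were named from the 20 widest domains, the 10 widest without a wild-type region, the 10 of highest knockout fold, the 5 widest over no protein-coding gene, the 3 on either side of each limit, and up to 4 genes of each list at the widest domains. Not all of these are printed (some are not reported here), and other genes named were chosen after their values were seen, as were the 8 printed promoters. The members and the 16 lists were chosen with earlier results of these data known. No test between genotypes was possible with 1 library each. Intervals are exact (Clopper-Pearson, 95%) and cover counting error only. Joining and cover were tested on simulated regions. Computation used pandas 2.3.3, NumPy 2.4.6 and SciPy 1.17.1 under Python 3.11.15, and plots used Matplotlib 3.10.9. Alternatives changed the gap, the least width, the cover limit, the −log10 q limit, the list length and the joining of the other list.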

Additional observations from a re-analysis of the deposited data

How the results depend on the processing

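No paired analysis was possible because each genotype had 1 library, and for the same reason no replicate could be left out. Over 7 settings, the domains little covered in the wild type outnumbered those little covered in the knockout each time, and 21 to 38 of the 53 T cell receptor and signalling genes were at them, against 31. With regions joined over 500 bp, 6 wild-type domains were little covered in the knockout. Joined over 2 kb there were 724 little-covered knockout domains (116 with no wild-type region, 53.2% over a gene start, median fold 21.2) and 205 wild-type ones. With domains of at least 8000 bp these were 218 (30 with none, 67.0%, fold 24.6) and 3. Under 25% cover there were 191 (41.4% over a start, fold 16.6) and 1. With the 20000 regions of highest −log10 q per list, 170 domains had no wild-type region, 69.6% were over a start and the median fold was 24.6. The other 25 of 43 values, including all of those at a −log10 q of at least 5 and with the other list joined, moved less than their limits, which are 1.5 times for a count and the 95% interval for a percent or median. Counting gene starts (28 genes) was added after the data were seen. Without stated depths, how far a deeper library would lengthen the wild-type regions was not tested.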

Other observations

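The share of broad knockout domains that were little covered in the wild type was not the same on every chromosome. It was 11 of 17 on chromosome X (64.7%) and 4 of 23 on chromosome 16 (17.4%), and 46 of 133 (34.6%) on chromosome 11, which held the most. The members on X were at Tmsb4x, P2ry10, Sash3, Sh2d1a, Elf4, Gpr174, Sh3kbp1 and Ppp1r3f, at the noncoding Firre and Gm15232, and at 1 place with no annotated gene. Sash3 and Sh2d1a encode lymphocyte signalling adaptors, and P2ry10 and Gpr174 encode lysophospholipid receptors of lymphocytes. These genes were named after their values were seen.

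The 31 autophagy genes, the pathway of the deleted gene, were all covered in both lists, with 99940 bp under knockout and 98558 bp under wild-type regions in sum. All 18 housekeeping and all 42 lymphoid transcription factor genes were also covered in both, so such cover is not particular to this pathway. The share of all protein-coding genes covered in both lists was not counted. Interferon-induced GTPase genes appeared among the little-covered domains outside the 16 lists, among them Ifi47 (17756 bp, 46.8% covered), Tgtp1 (12068 bp, 22.8%), Tgtp2 (11438 bp, 35.1%) and Gbp4 (6957 bp, 16.4%). These too were chosen after their values were seen, and no list of such genes was counted.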
